A study of Mus musculus with 33 samples.

Results

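Expression of 34 genes of cholesterol and fatty acid synthesis was examined in mouse frontal cortex across normal sleep, sleep loss and recovery sleep, in wildtype mice and in mice with an altered Mef2c gene. The members were chosen by symbol, and all 34 were found among the 21565 genes of the expression table. They comprised 7 genes of the mevalonate arm, 3 of the squalene arm, 8 that act after lanosterol, 5 of the SREBP machinery, the sterol carrier Stard4, the cholesterol hydroxylase Cyp46a1, 3 genes of fatty acid synthesis, 4 desaturases and 2 elongases. Every member passed the filter on low values in all 9 comparisons, so no member was lost to it.

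Poly(A) RNA of 33 male mice on a C57BL/6J background, aged 8 to 19 weeks, was sequenced, with every cortex taken 6 hr after lights on (ZT 6) and all animals kept in the dark for the last 36 hr. In control sleep (CS) mice slept freely, in sleep deprivation (SD) they were kept awake for 6 hr on a slow treadmill, and in recovery sleep (RS) they were kept awake for 4 hr and then slept for 2 hr. There were 6 CS, 7 SD and 7 RS wildtype (WT) mice, 4 CS and 3 SD Mef2c f/f mice, and 3 CS and 3 SD Mef2c-cKO mice. Mef2c f/f mice carry loxP sites around exon 11 of Mef2c, a transcription factor of excitatory neurons, and were backcrossed for 5 generations. Mef2c-cKO mice carry this allele with a Camk2a-Cre transgene that acts in excitatory neurons of the forebrain. As a model the cKO is aimed at those cells, but some cKO mice had lost a single Mef2c allele in the germline, control sleep mice among them. The paper states that this reduced dose, in every cell type and during development, may contribute to the cKO transcriptome. RS was collected for WT mice alone.

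Cholesterol is made from acetyl-CoA through mevalonate, squalene and lanosterol, and the brain makes nearly all of its own, because lipoproteins do not cross the blood-brain barrier. Transcription of the pathway is driven by SREBP-2, the product of Srebf2, and that of fatty acid synthesis by SREBP-1, the product of Srebf1. Scap escorts both precursors from the endoplasmic reticulum to the Golgi when sterols are low, and Insig1 and Insig2 hold Scap back when sterols are high. In the adult brain glia make most of the sterol, and neurons dispose of the excess through Cyp46a1.

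The promoters were examined because SREBPs act there together with the CCAAT-binding factor NF-Y. A window of 250 bases before to 50 bases after the RefSeq start (GRCm38.p6) was at hand for 27 of the 34 members, the others being Fdps, Fdft1, Sqle, Stard4, Scd1, Scd2 and Fads1. The letters CCAAT on either strand occurred in 22 of these 27 (81.5%), against 41.1% of 27025 genes. CACGTG, which reads the same on both strands and is bound by many basic helix-loop-helix factors, occurred in 6 of 27 (22.2%, against 8.09%). TCACCCCAC on either strand, one form of the sterol response element, occurred in 1 of 27 (3.7%, against 0.614%), that of Hmgcs1. No CCAAT overlapped TCACCCCAC in the sequences printed here. A match is a description of the letters and shows no binding. The 250 bases before the start are given for 5 members that were called after sleep loss, 3 of them lower (Hmgcs1, Idi1 and Msmo1) and 2 higher (Ebp and Srebf2), 5′ to 3′ on the strand of the gene. Capitals mark CCAAT, its reverse complement ATTGG, and TCACCCCAC.
Hmgcs1 (chr13:119690101-119690350, plus strand): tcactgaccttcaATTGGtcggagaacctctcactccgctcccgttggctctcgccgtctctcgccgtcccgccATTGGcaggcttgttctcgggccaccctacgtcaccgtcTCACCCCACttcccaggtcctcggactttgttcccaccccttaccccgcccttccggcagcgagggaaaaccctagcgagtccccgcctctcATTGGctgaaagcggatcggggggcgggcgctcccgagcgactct
Idi1 (chr13:8885356-8885605, plus strand): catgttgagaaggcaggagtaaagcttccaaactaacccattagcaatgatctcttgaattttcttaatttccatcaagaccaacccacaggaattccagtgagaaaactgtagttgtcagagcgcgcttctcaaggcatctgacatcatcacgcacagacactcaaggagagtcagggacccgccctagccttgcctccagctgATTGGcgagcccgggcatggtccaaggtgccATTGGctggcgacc
Msmo1 (chr8:64733579-64733828, minus strand): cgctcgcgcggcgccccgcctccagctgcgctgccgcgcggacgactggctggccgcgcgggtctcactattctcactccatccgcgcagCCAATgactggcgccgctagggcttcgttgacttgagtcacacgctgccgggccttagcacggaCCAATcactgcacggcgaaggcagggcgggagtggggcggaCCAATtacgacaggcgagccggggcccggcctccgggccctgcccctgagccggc
Ebp (chrX:8193513-8193762, minus strand): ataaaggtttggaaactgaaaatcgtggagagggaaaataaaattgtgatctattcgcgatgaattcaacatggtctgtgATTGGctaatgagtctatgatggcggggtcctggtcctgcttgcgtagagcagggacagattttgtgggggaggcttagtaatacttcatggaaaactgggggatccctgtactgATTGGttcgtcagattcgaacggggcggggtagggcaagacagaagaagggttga
Srebf2 (chr15:82147019-82147268, plus strand): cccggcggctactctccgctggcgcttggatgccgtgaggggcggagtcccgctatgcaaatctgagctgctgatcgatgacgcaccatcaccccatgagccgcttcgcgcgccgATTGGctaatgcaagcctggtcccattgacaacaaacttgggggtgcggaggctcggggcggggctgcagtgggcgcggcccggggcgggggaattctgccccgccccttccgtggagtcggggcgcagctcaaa
The printed members, which moved in opposite directions, all held the CCAAT letters, as did 22 of the 27 members with a window. The letters occurred 3 times in the sequence of Hmgcs1 and of Msmo1, 2 times in that of Idi1 and of Ebp, and 1 time in that of Srebf2. Scap, called higher, and Elovl6, called lower, held no CCAAT in their windows.

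Levels are given as rescaled CPM, that is, CPM (read counts scaled to the total of a library) divided by a factor per library that aligns the typical gene across the 33 libraries. A member was called when its adjusted p was at most 0.05 and its log2 fold change at least 0.3 in size (limma, adjusted over all genes tested). Fold changes are on the log2(rescaled CPM + 0.5) scale with the standard error after ±, which understates the change of low genes such as Fdps. The libraries held 18935045 to 230512148 reads on listed genes, and the lowest member value rested on 66 reads (Fdps in WT CS). The SD among libraries of a group ranged from 0.493% of the mean (Elovl5 in Mef2c f/f SD) to 38.1% (Srebf1 in WT CS). In this bulk tissue, fewer cells of a type and less RNA per cell cannot be told apart.

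Mef2c itself averaged 1147 ± 67.3 rescaled CPM in Mef2c f/f CS (SD, n = 4) and 1431 ± 415 in Mef2c-cKO CS (SD, n = 3). After SD the means were 1263 ± 136 (SD, n = 3) and 1311 ± 192 (SD, n = 3), and the genotypes did not differ past the threshold in either state (adjusted p = 0.382 and 0.82). Reads over the whole gene cannot show the loss of 1 exon, so these values do not check the labels. In WT, Mef2c averaged 1431 ± 323 in CS (SD, n = 6), 815 ± 112 in SD (SD, n = 7) and 924 ± 194 in RS (SD, n = 7), and fell from CS by 0.80 in SD (adjusted p = 0.00109) and by 0.63 in RS (adjusted p = 0.035) on the log2 scale. Mef2c was not called between CS and SD in Mef2c f/f (0.14, adjusted p = 0.505) or Mef2c-cKO (-0.09, adjusted p = 0.998), and the change in Mef2c f/f minus that in WT was 0.93 ± 0.20 (adjusted p = 0.018). The highest WT CS value, 2019, was that of replicate 2, against 1085 to 1521 in the other CS libraries. These Mef2c changes are given with all libraries and without GC correction alone. Slc17a7, the transporter that defines cortical excitatory neurons, was at 385 to 668 in every library. The WT CS library of replicate 2 stood apart: it held Alb, a liver transcript, at 245.7 rescaled CPM, against 3.38 in replicate 1 and at most 0.107 in the other CS libraries, and it was the lowest of the 6 CS libraries in 19 of the 34 members and the highest in 7. Results of the members that rest on it are given with and without it. The listed genes of WT libraries summed to 925580 to 985958 CPM and those of Mef2c f/f and Mef2c-cKO libraries to 1000000, so that the 2 sets of libraries were handled differently before deposit. Within WT the sums fell into 2 ranges. They were 925580 to 965953 in CS replicates 1 to 4, SD replicate 1 and RS replicates 1 to 3, and 977452 to 985958 in the other WT libraries. These ranges were spread unevenly over the sleep states, and their part in the WT changes was not tested.

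Per kb of transcript, the mean levels in WT CS spanned from 2.13 rescaled CPM per kb for Fdps, which makes farnesyl diphosphate, to 130 for Scd2, the main stearoyl-CoA desaturase of the brain. Of the 100-base windows of the Fdps transcript 75.8% also occur in other genes, so its level and rank are uncertain. Next below Scd2 stood Hmgcs1 (80.7 rescaled CPM per kb), the cytosolic enzyme that makes HMG-CoA, followed by Msmo1 (35.0), Fads1 (34.8), Cyp46a1 (34.3) and Acly (31.0). Near the low end were Dhcr7 (3.82), the reductase that ends one branch of the pathway, Stard4 (3.37), and Srebf1 (4.57), which stood below Srebf2 (15.5). These are means of 6 libraries per gene. Msmo1, Fads1 and Cyp46a1 lay within their spread of each other.

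**Figure D1:**
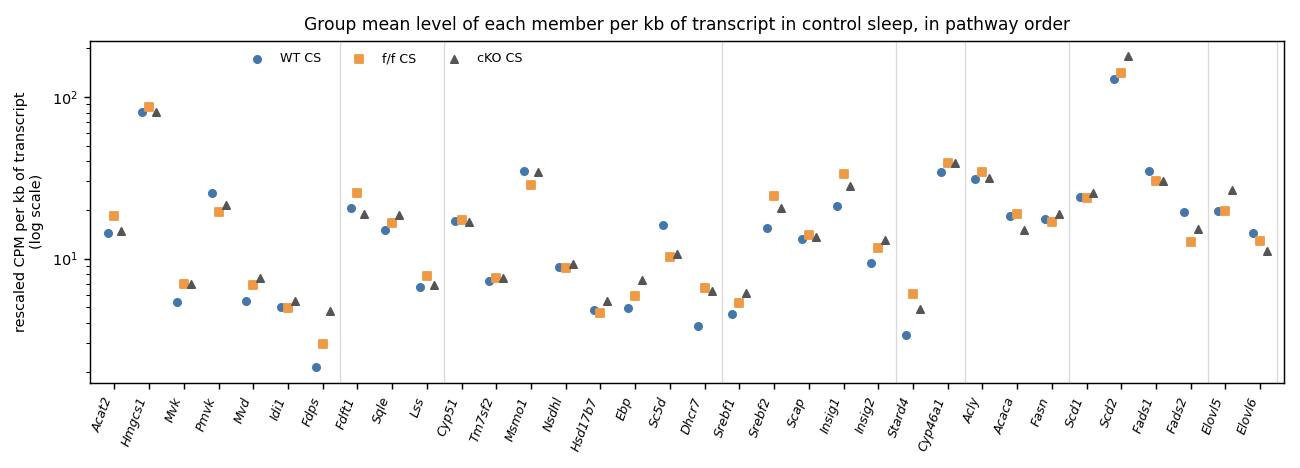
Mean rescaled CPM per kb of transcript (log axis) of each of the 34 members in control sleep, in pathway order, for WT, Mef2c f/f and Mef2c-cKO mice; grey lines part the arms of the pathway. Scd2 and Hmgcs1 lie above the other members in all 3 genotypes, with 130 and 80.7 in WT CS, and Fdps lies lowest, at 2.13 in WT CS. The place of Fdps is uncertain, because most of its transcript also occurs in other genes.

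The first question was how 6 hr of sleep loss changed these genes in WT mice. Between CS and SD, 10 of the 34 members were called, 6 higher and 4 lower, against 45.1% of the 12913 genes tested (24.6% higher and 20.5% lower), so the share of members called, 29.4%, lay below that of all genes. Before adjustment, 18 of 34 had p of at most 0.05, against 59.5%. The regulators Srebf1, Srebf2 and Scap rose, as did Cyp46a1, Ebp and Dhcr7, while the enzymes Hmgcs1, Idi1, Msmo1 and Elovl6 fell. The median change of the members was 0.01, beside 0.04 for all genes tested. The arms did not move as blocks: in the mevalonate arm 2 of 7 fell and none rose, of the squalene arm 0 of 3 were called, and after lanosterol 2 of 8 rose and 1 fell. In the SREBP machinery 3 of 5 rose and none fell. With CPM as deposited, which moved the median of all genes to 0.30, 14 members were called higher and 0 lower, so that each fall given here is relative to the typical gene and was not called without rescaling.

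Among the regulators, Srebf1 stood at 8.53 to 26.1 rescaled CPM in CS (median 22.0) and at 23.5 to 44.2 in SD (median 36.9). Its mean rose from 19.7 ± 7.50 (SD, n = 6) to 34.2 ± 8.20 (SD, n = 7), a change of 0.85 ± 0.25 (adjusted p = 0.0131). The groups overlapped only at their edges: 3 CS libraries at 25.6 to 26.1 lay above the lowest SD library, and the CS libraries of replicates 1 and 2, at 13.4 and 8.53, were the lowest of all. Srebf2 stood at 47.7 to 97.2 in CS (median 84.0) and at 96.7 to 124 in SD (median 114.5), a rise of 0.54 ± 0.14 (adjusted p = 0.00794), and just 1 CS library reached the lowest SD library. Scap stood at 34.4 to 74.5 in CS (median 58.7) and at 63.3 to 81.1 in SD (median 74.0), a rise of 0.40 ± 0.15 (adjusted p = 0.0336) with overlapping groups. Insig2 changed by 0.23 ± 0.09 (adjusted p = 0.0382), under the fold required, and Insig1, a classical target of SREBPs, by 0.02 ± 0.11, with a 95% confidence interval from -0.22 to 0.27.

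Cyp46a1, which turns cholesterol into a hydroxylated form that can leave the brain, stood at 34.8 to 100.6 rescaled CPM in CS (median 76.4) and at 84.7 to 125 in SD (median 108). It rose by 0.61 ± 0.19 (adjusted p = 0.0174). Stard4, which carries sterol between membranes, changed by -0.02 ± 0.11 (95% confidence interval from -0.25 to 0.20).

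Of the mevalonate arm, Hmgcs1 stood at 240.2 to 323 rescaled CPM in CS (median 273) and at 194 to 249 in SD (median 214.5), a fall of -0.33 ± 0.09 (adjusted p = 0.00847). Idi1, the isomerase that yields the building blocks of squalene, stood at 11.2 to 23.8 in CS (median 13.8) and at 8.66 to 13.3 in SD (median 10.5), a fall of -0.43 ± 0.16 (adjusted p = 0.0388), and the highest CS value was that of replicate 2. The other 5 were not called. Mvk, mevalonate kinase, and Fdps had changes of 0.41 ± 0.23 and 0.40 ± 0.23, as large as that of Scap but with a wider spread (adjusted p = 0.133 and 0.16), and Acat2, Pmvk and Mvd changed by -0.09, 0.07 and 0.23.

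The 3 squalene genes, Fdft1, Sqle and Lss, changed by -0.02, -0.12 and 0.00, and their 95% confidence intervals lay together between -0.28 and 0.20. After lanosterol, Msmo1, which removes methyl groups from the sterol ring, stood at 58.09 to 84.5 rescaled CPM in CS (median 72.5) and at 44.4 to 58.07 in SD (median 54.4). It fell by -0.42 ± 0.09 (adjusted p = 0.00385), and every SD library lay below every CS library, narrowly in the closest pair, which held for 10.4% of all genes tested. Ebp, the sterol isomerase, moved the other way, from 7.02 to 10.3 in CS (median 8.40) to 8.87 to 14.8 in SD (median 12.6), a rise of 0.44 ± 0.12 (adjusted p = 0.0119). Dhcr7 rose by 0.30 ± 0.12 (adjusted p = 0.0408), from a CS range of 8.27 to 12.6 (median 10.9) to 9.85 to 14.8 (median 13.9). Hsd17b7, which acts with Msmo1 on the methylated sterol, passed the adjusted p but not the fold (-0.23 ± 0.07, adjusted p = 0.0225), and Sc5d (-0.32 ± 0.13, adjusted p = 0.057) and Nsdhl (-0.26 ± 0.11, adjusted p = 0.064) missed the p.

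For fatty acids, Elovl6, the elongase that extends palmitate, stood at 74.4 to 94.8 rescaled CPM in CS (median 84.2) and at 58.1 to 77.3 in SD (median 68.6), a fall of -0.35 ± 0.08 (adjusted p = 0.00581). Acaca, the acetyl-CoA carboxylase that commits carbon to fatty acids, passed the adjusted p but not the fold (-0.27 ± 0.07, adjusted p = 0.00992), though its SD libraries (132 to 162) all lay below its CS libraries (165 to 182). Fasn, the fatty acid synthase that uses its product, had a change of 0.41 ± 0.17 (adjusted p = 0.0512), and Acly, which makes the acetyl-CoA, one of 0.22 ± 0.09 (adjusted p = 0.0538). None of the 4 desaturases was called, with changes from -0.28 (Scd1) to 0.25 (Scd2), nor was Elovl5 (0.03 ± 0.07).

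**Figure D2:**
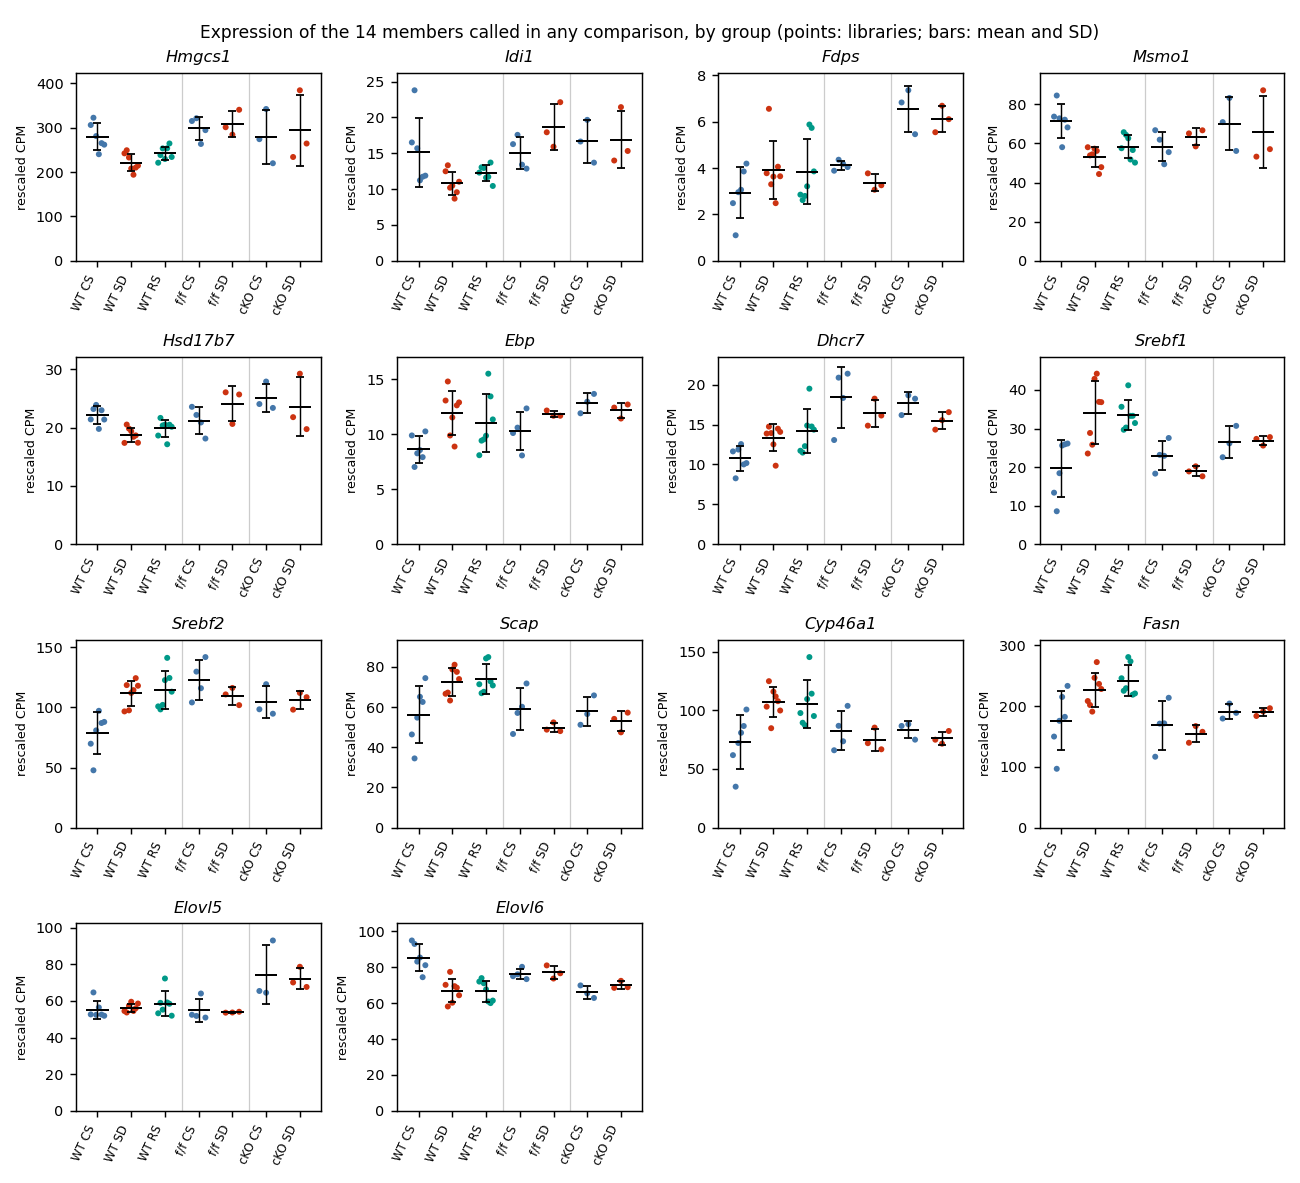
Rescaled CPM (linear axes from 0) of the 14 members called in at least 1 of the 9 comparisons, in the 7 groups; points are libraries, bars the mean and SD. In WT the Srebf1 libraries rise from 8.53 to 26.1 in CS to 23.5 to 44.2 in SD while those of Msmo1 fall from 58.1 to 84.5 to 44.4 to 58.1, and Fdps is set higher in the 6 Mef2c-cKO libraries (5.46 to 7.36) than in the 7 Mef2c f/f libraries (3.07 to 4.36).

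Without the CS library of replicate 2, 6 members were called between CS and SD (34.9% of all genes): Srebf1 (0.64, adjusted p = 0.0186), Srebf2 (0.40, adjusted p = 0.00476), Cyp46a1 (0.42, adjusted p = 0.0131) and Ebp (0.38) higher, and Msmo1 (-0.37) and Elovl6 (-0.32) lower. The calls of Scap, Dhcr7, Hmgcs1 and Idi1 were lost, with values of 0.27, 0.23, -0.29 and -0.29. Base composition moved with the changes as well. Across 12460 genes the log2 fold change between CS and SD ran with the GC content of the transcript (Spearman's rho = 0.728 across genes, which share libraries and are not independent replicates), and the members called higher had 50.9 to 59.1% GC whereas those called lower had 41.9 to 45.2%. After correction of each library for GC content and length, 5 members were called (21.6% of all genes): Srebf1 (0.45, adjusted p = 0.0388), Ebp (0.40, adjusted p = 0.0134), Insig2 (0.45, adjusted p = 0.00129) and Scd2 (0.37, adjusted p = 0.029) higher and Pmvk (-0.40) lower. Srebf2 kept an adjusted p of 0.0382 at a change of 0.19 and Msmo1 one of 0.0479 at -0.18, while Hmgcs1, Idi1, Scap and Elovl6 were at -0.0068, -0.060, -0.029 and 0.013. Ebp and Insig2 alone were called higher with both the correction and the library left out (0.34 and 0.43). In that fit Srebf1 was at 0.35 (adjusted p = 0.0836), Cyp46a1 at 0.095 (adjusted p = 0.4) and Dhcr7 at 0.135 (adjusted p = 0.296). With quantile normalization Hmgcs1 was at -0.09 (adjusted p = 0.344) and Dhcr7 at 0.11 (adjusted p = 0.379), both no longer called. The GC correction also removes any true change that runs with GC content, and what part library preparation had in these changes was not tested.

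**Figure D3:**
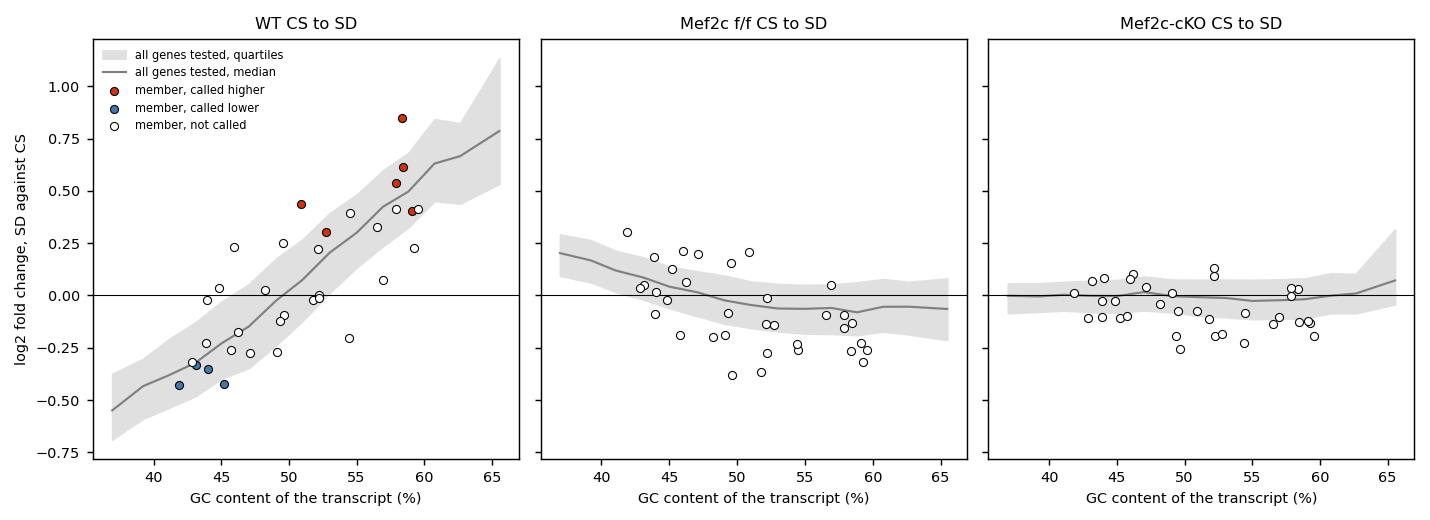
Log2 fold change between CS and SD against transcript GC content (%) for the members (circles, filled when called) in WT, Mef2c f/f and Mef2c-cKO mice, over the median and quartiles of all genes tested in bins of GC content. In WT the members follow the slope of all genes (rho = 0.728), with Srebf1, Ebp and Insig2 above it, whereas the slope is reversed and shallower in Mef2c f/f (rho = -0.317) and near flat in Mef2c-cKO (rho = -0.0226).

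Markers of other cells moved too between WT CS and SD. The 4 genes of meningeal fibroblasts summed to 8.4 to 34.1 rescaled CPM in CS, 37.0 to 62.8 in SD and 13.6 to 36.9 in RS, with 2 of 4 called higher, and Col1a1 went from 0.861 to 4.51 in CS to 5.04 to 20.6 in SD. Of 6 excitatory neuron genes 1 was called lower, of 6 inhibitory ones 2 higher, of 7 astrocyte genes 3 higher, and of 8 oligodendrocyte genes 1 higher and 2 lower, while the sums overlapped between CS and SD (3611 to 5097 against 3251 to 4340 for astrocytes, 1984 to 2819 against 1802 to 2577 for oligodendrocytes). No marker of these lists was at 0. Their part in the changes of the members was not tested.

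The next question was where the genes stood after recovery sleep, for which the RS libraries were set against the same 6 CS libraries. Between CS and RS, 4 of 34 members were called, 3 higher and 1 lower, against 17.5% of 12752 genes (9.28% higher and 8.22% lower). At an unadjusted p of at most 0.05 it was 12 of 34, against 46.4%. Srebf1 stood at 29.7 to 41.2 rescaled CPM in RS (median 33.3), above every CS library, and was higher by 0.85 ± 0.22 (adjusted p = 0.035). Srebf2 stood at 98.4 to 141 (median 113), again above every CS library, and was higher by 0.57 ± 0.15 (adjusted p = 0.0349), a position that 1.7% of all genes tested shared. Fasn went from 96.8 to 233 in CS (median 179) to 219 to 281 in RS (median 230) and was higher by 0.51 ± 0.16 (adjusted p = 0.0468), while its SD libraries stood at 191 to 273 (median 228). Elovl6 was at 60.0 to 73.9 in RS (median 67.6), below every CS library (2.02% of all genes), and was lower by -0.35 ± 0.08 (adjusted p = 0.0329). Acaca (-0.21 ± 0.06, adjusted p = 0.0427) and Msmo1 (-0.29 ± 0.09, adjusted p = 0.047) passed the p but not the fold. The RS libraries of Acaca (139.5 to 160.8) also lay below every CS library (165.1 to 182.0).

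For the other members called after SD the RS values lay on the same side of CS without a call. Hmgcs1 was at 221 to 265 in RS (median 238) and Idi1 at 10.4 to 13.7 (median 12.3). Scap was at 66.9 to 84.9 (median 71.4, change 0.43, adjusted p = 0.0515), Cyp46a1 at 87.2 to 145 (median 97.6, change 0.58, adjusted p = 0.0527) and Dhcr7 at 11.5 to 19.5 (median 14.4, change 0.37, adjusted p = 0.0531), all just short of the threshold. Ebp was at 8.09 to 15.5 (median 9.86, change 0.31, adjusted p = 0.0993). The calls of this comparison were fragile: 0 members were called without the CS library of replicate 2 (0.768% of all genes), and 0 also when CS replicate 1 or 3, or RS replicate 3, 4, 5, 6 or 12, was left out. Without CS replicate 2, Srebf1 (0.64), Srebf2 (0.43) and Elovl6 (-0.33) each had an adjusted p of 0.0502, and Fasn (0.35) had one of 0.0649. After GC and length correction Srebf1 (0.52) and Pmvk (-0.42) were called. With CPM as deposited 7 members were higher and 0 lower, beside a median of 0.20 for all genes.

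Between SD and RS directly, 0 of 34 members were called by limma (0.0232% of 12921 genes called) and 0 had an unadjusted p of at most 0.05, against 5.29% of all genes. edgeR and DESeq2 called 0 too, with 1 member at an unadjusted p of at most 0.05 by DESeq2. The changes lay between -0.20 (Tm7sf2) and 0.18 (Idi1), and the 95% confidence intervals of all 34 members between -0.46 and 0.38. Srebf1 differed by 0.00 (95% confidence interval from -0.28 to 0.29) and Srebf2 by 0.03 (from -0.16 to 0.22). Hmgcs1 was at 0.13 (from -0.02 to 0.28). RS mice were kept awake for a shorter time than SD mice, and no mice were sampled at the start of recovery sleep. The difference between SD and RS therefore does not measure the change during the 2 hr of sleep, which was not tested.

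In Mef2c f/f mice 0 of 34 members were called between CS and SD by limma (0.0403% of 12410 genes called), and 8 had an unadjusted p of at most 0.05 (23.5% of them, against 17% of all genes). edgeR and DESeq2 called 0, DESeq2 with 10 at that unadjusted p. The median change was -0.09 (-0.00 for all genes). Every SD library lay below every CS library for 8 members, against 8.9% of all genes: Acat2, Mvk, Mvd and Fdps of the mevalonate arm, the squalene genes Fdft1 and Lss, and Nsdhl and Acaca. Fdft1, squalene synthase, which draws carbon into sterols, was at 80.0, 83.7, 105 and 106 rescaled CPM in CS and at 67.7, 72.3 and 76.5 in SD (-0.36 ± 0.11, adjusted p = 0.178). Acat2, the cytosolic thiolase that starts the pathway, was at 34.1, 38.9, 40.2 and 51.5 in CS and at 29.0, 31.5 and 33.1 in SD (-0.38 ± 0.13, adjusted p = 0.195). Insig2 was the one member with every SD library higher: 30.0 to 32.2 in CS and 34.5, 36.5 and 38.4 in SD (change 0.21, against 8.53% of all genes with every library higher).

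Summed levels of oligodendrocyte, precursor and astrocyte markers were higher in SD beside these values in Mef2c f/f. The 8 oligodendrocyte genes summed to 1954 to 2320.0 rescaled CPM in CS and 2619.5 to 2997 in SD, and the 4 of oligodendrocyte precursors to 91.5 to 98.9 and 109 to 119. The 7 of astrocytes summed to 4337 to 4738 and 4739 to 5043. Each lay without overlap, the astrocytes by a narrow gap. Those of 4 meningeal fibroblast genes were 19.6 to 23.5 and 24.2 to 50.1. Of the oligodendrocyte genes 4 of 8 lay higher in every SD library. None of these genes was called and none was at 0. Their part in the values of the members was not tested. The sums of 6 microglial genes overlapped in Mef2c f/f, at 136.8 to 158.4 in CS and 148.8 to 155.1 in SD.

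The regulators that rose in WT had values of the opposite sign in Mef2c f/f. Srebf1 stood at 18.3, 22.9, 23.2 and 27.5 in CS and at 17.6, 18.9 and 20.2 in SD (-0.26, 95% confidence interval from -0.55 to 0.02). Srebf2 was at 104 to 142 in CS and 102, 111 and 116 in SD (-0.16, from -0.40 to 0.08). Of the enzymes that fell in WT, Msmo1 was at 0.13 (from -0.11 to 0.36), Hmgcs1 at 0.05 (from -0.17 to 0.26) and Idi1 at 0.30 (from -0.02 to 0.62). Without the CS library of replicate 1 the desaturase Fads2 was called lower, the only member called in any leave-one-out fit here, in a fit that called 4.75% of all genes.

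In Mef2c-cKO mice 0 members were called between CS and SD by limma (0.0234% of 12810 genes called), and 0 had an unadjusted p of at most 0.05 (3.05% of all genes). edgeR and DESeq2 called 0. The changes lay between -0.26 (Acat2) and 0.13 (Fads1), and the 95% confidence intervals of all members between -0.68 and 0.59. Srebf1 was at 22.6, 26.2 and 30.7 rescaled CPM in CS and at 25.6, 27.3 and 27.8 in SD, a difference of 0.03 (from -0.25 to 0.32). Msmo1 was at 56.2, 70.9 and 83.3 in CS and at 53.3, 57.1 and 87.2 in SD (-0.11, from -0.61 to 0.40). Mvk and Pmvk had every SD library below every CS library, against 4.56% of all genes. Within these small groups the pathway varied by library: CKO CS replicate 7 was highest of its group in 27 of 34 members and SD replicate 6 in 22.

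**Figure D4:**
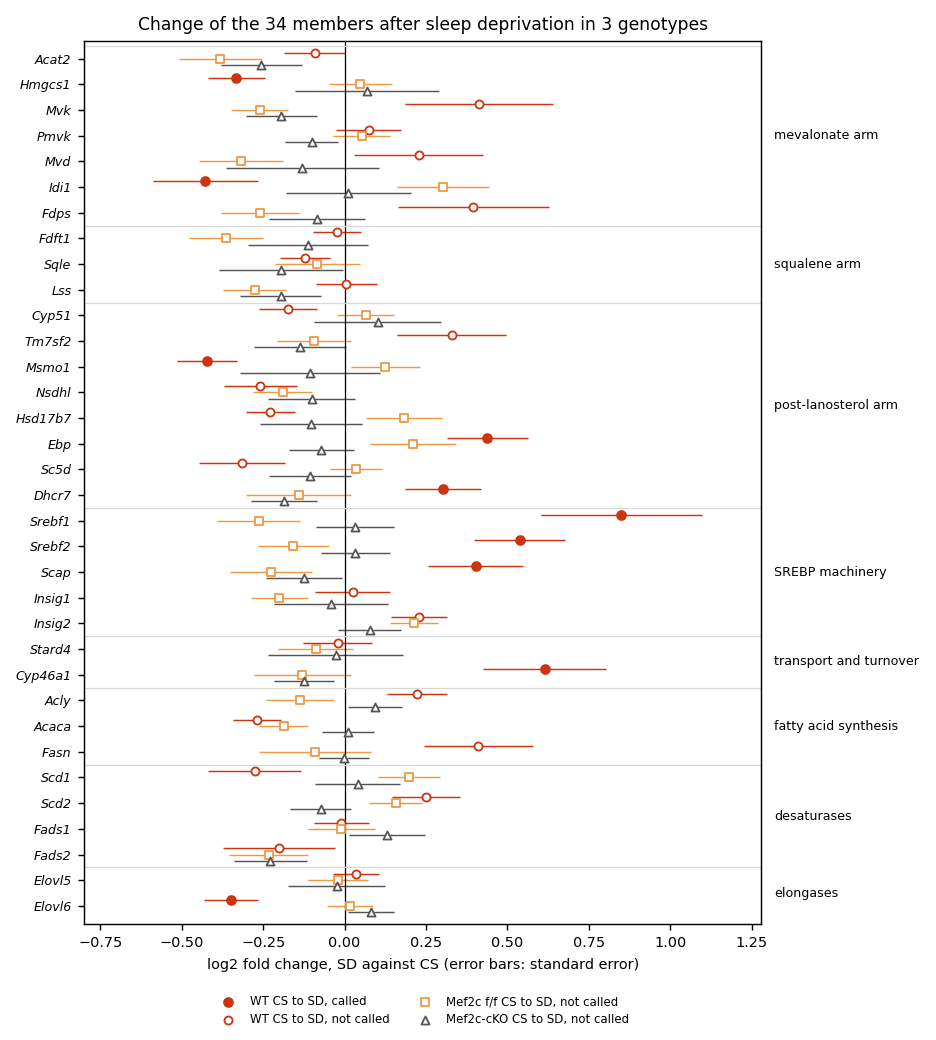
Log2 fold change between CS and SD (bars: standard error) of the 34 members, in pathway order, in WT, Mef2c f/f and Mef2c-cKO mice; filled symbols are called. Of the members, 10 are called in WT, from -0.43 (Idi1) to 0.85 (Srebf1), and none in Mef2c f/f or Mef2c-cKO.

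Whether the response differed between genotypes was tested as a difference of changes. Between Mef2c-cKO and Mef2c f/f, 0 of 34 members differed (0.00778% of 12860 genes called; 0 members at an unadjusted p of at most 0.05 against 7.81% of all genes), and edgeR and DESeq2 called 0. The difference was 0.30 for Srebf1 (95% confidence interval from -0.11 to 0.70) and -0.29 for Idi1 (from -0.83 to 0.25), so differences of this size were not detectable with 3 or 4 mice a group. Between Mef2c f/f and WT, whose libraries also differ in depth and in the handling of CPM so that genotype and library set cannot be told apart, 5 of 34 differed at an adjusted p of at most 0.05, against 15.1% of 13106 genes, and 13 had an unadjusted p of at most 0.05, against 40% of all genes. This test shares its libraries with the comparisons within WT and within Mef2c f/f. Msmo1 (0.55 ± 0.15, adjusted p = 0.0302), Hsd17b7 (0.41 ± 0.13, adjusted p = 0.045) and Elovl6 (0.37 ± 0.12, adjusted p = 0.0496) had the higher change in Mef2c f/f, and Srebf1 (-1.11 ± 0.37, adjusted p = 0.0478) and Srebf2 (-0.69 ± 0.21, adjusted p = 0.0403) the lower. Srebf2 already stood higher in Mef2c f/f CS (104 to 142) than in WT CS (47.7 to 97.2). After GC and length correction 0 members differed, and 0 differed without Mef2c f/f CS replicate 2 or 4 or SD replicate 1 or 3. Without WT CS replicate 2, Msmo1 (0.50), Hsd17b7 (0.40), Srebf1 (-0.90) and Srebf2 (-0.56) stayed called, and Elovl6 did not (0.34, adjusted p = 0.0556). The differences ran against GC content across genes (rho = -0.768), and with CPM as deposited 10 members had the lower change and 0 the higher.

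Mef2c-cKO was then compared with Mef2c f/f within each sleep state, which asks whether the cKO genotype set these genes at another level. Loss of Mef2c from excitatory neurons and germline loss of an allele in some cKO mice cannot be told apart here. In CS 1 of 34 members was called, against 7.67% of 12681 genes (3.17% higher). It was Fdps, at 3.89, 4.04, 4.18 and 4.36 rescaled CPM in Mef2c f/f and at 5.46, 6.83 and 7.36 in Mef2c-cKO (0.60 ± 0.14, adjusted p = 0.0377). The counting of Fdps is uncertain, since 75.8% of its 100-base windows also occur in other genes. Every cKO library lay above every f/f library, as for 13.4% of all genes. The same held for Scd2 (954.9 to 1006 in cKO, 744.6 to 826.5 in f/f), Elovl5 and Insig2, which were not called. Acaca (131.0 to 153.9 in cKO, 168.4 to 193.1 in f/f) and Elovl6 lay apart in the other direction, also without a call. For that direction the share of all genes is not given here, so these members cannot be set against it. The Fdps call held in 1 of 7 leave-one-out fits, that without cKO replicate 8. The next members by p missed the threshold: Acaca at -0.32 (adjusted p = 0.058), Scd2 at 0.34 (adjusted p = 0.0592), Elovl5 at 0.42 (adjusted p = 0.1) and Fdft1 at -0.44 (adjusted p = 0.106). Scd2 was called after GC and length correction (0.45), beside Fdps (0.51). With quantile normalization Scd2 was called (0.61, adjusted p = 0.0165) and Fdps was not (0.38, adjusted p = 0.203).

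In SD 4 of 34 members were called, all higher in Mef2c-cKO, against 15.1% of 12774 genes (9.1% higher). Fdps was at 3.07, 3.26 and 3.77 rescaled CPM in Mef2c f/f and at 5.55, 6.11 and 6.69 in Mef2c-cKO, a difference of 0.78 ± 0.12 (adjusted p = 0.00567). Srebf1 was at 17.6, 18.9 and 20.2 against 25.6, 27.3 and 27.8 (0.50 ± 0.08, adjusted p = 0.00604). Elovl5, an elongase of polyunsaturated fatty acids, was at 53.6, 53.7 and 54.1 against 67.7, 70.1 and 78.7 (0.42 ± 0.07, adjusted p = 0.0077). For these 3 genes the groups lay apart, as they did for 21.6% of all genes in this direction, and the calls held in 6 of 6 leave-one-out fits and 8 of 8 other alternatives, the GC and length correction included. Fasn was at 140, 158 and 167 against 184, 191 and 197 (0.30 ± 0.08, adjusted p = 0.0332), a call that held in 1 of 6 leave-one-out fits. Fads2 passed the p but not the fold (0.27 ± 0.08, adjusted p = 0.0478), and the groups of Fasn and of Fads2 lay apart as well. Acaca (142.4 to 147.1 in cKO, 149.2 to 164.0 in f/f), Elovl6 (68.5 to 72.4 and 73.6 to 80.9) and Lss (27.3 to 28.4 and 28.9 to 31.6) lay apart in the other direction, without a call. The share of all genes lying lower in every cKO library is not given here. Srebf2 differed by -0.05 (95% confidence interval from -0.22 to 0.13) and Hmgcs1 by -0.10 (from -0.48 to 0.29). Without cKO replicate 6, in which 22 of 34 members were highest of the group, 7 were called (19% of all genes), with Fads2 higher and Fdft1, Hmgcs1 and Stard4 lower in place of Fasn.

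Markers of glia and of neurons differed beside these results. In SD 4 of 6 microglial genes were called higher in Mef2c-cKO, with a summed level of 148.8 to 155.1 rescaled CPM in Mef2c f/f and 185.6 to 204.2 in Mef2c-cKO, and 2 of 7 astrocyte genes (Aqp4 and Gfap) were higher, although the astrocyte sum was lower (4739 to 5043 against 4375 to 4676). The sum of 6 excitatory genes was lower, 1835 to 1969 in Mef2c f/f and 1569 to 1766 in Mef2c-cKO, with 1 called lower. That of 6 inhibitory genes was higher, 532 to 608 and 706 to 824, with 3 called higher and 1 lower. The sum of 4 precursor genes was also higher, 109 to 119 and 124 to 139, with 1 called, while 1 of 8 oligodendrocyte genes was lower and 1 of 4 endothelial genes higher. In CS 0 of 6 microglial genes were called, the sums being 136.8 to 158.4 and 163.4 to 435.5, and 3 of 8 oligodendrocyte genes were higher (sums of 1954 to 2320.0 and 2358 to 3117). In CS, 2 of 4 meningeal fibroblast genes were called higher too (sums of 19.6 to 23.5 and 32.7 to 38.3), as was 1 of 4 precursor genes (91.5 to 98.9 and 121 to 229), and 1 of 4 endothelial genes was lower (80.2 to 85.2 and 65.3 to 77.3). Of the inhibitory and the astrocyte genes 1 each was higher in CS, with sums that overlapped. The top of the microglial range came from cKO CS replicate 8, with C1qa at 90.2 against 16.6 to 23.4 in the other 2 and Aqp4 at 281 against 139 to 146, and that library was the lowest of its group in 19 of 34 members. No marker of these lists was at 0 in every library. Their part in the differences was not tested.

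The counting of some members is uncertain. Of the 100-base windows of the Acaca transcript 42.8% recur in a gene at another locus (Gm5182), and of those of Acat2 35.3% (Acat3 and Tcp1), Idi1 20% (Gm13502 and Gm35570), Fdps 18.9% (Gm3571 and Gm5873), Fdft1 2.78% (Gm6781), Scd1 2.66% (its family members among them), and Scd2 and Elovl6 under 1%. Reads lying wholly within such windows do not map uniquely. Other members share exon bases with a gene at their own locus. These are, on the other strand, Hmgcs1, Idi1, Fdft1, Lss, Cyp51, Srebf1, Scap and Elovl6, and, on the same strand, Fdps (1124 bases with Gm43738), Tm7sf2, Srebf1 and Scd2, the last 2 with a microRNA gene. With genes at its own locus included, 75.8% of the Fdps windows also occur in another gene. The annotation and the strand setting of the counting are not given in the sources used here, so it is not known how reads of such bases were assigned.

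Genes of the same pathways outside the 34 were examined from 3 lists. Between WT CS and SD, 2 of 17 other sterol and SREBP genes tested rose and 4 fell, 8 of 31 other fatty acid genes rose and 4 fell, and 8 of 28 genes of cholesterol transport and oxysterols rose and 3 fell, against the same 24.6% and 20.5% of all genes. Acacb, the mitochondrial form of acetyl-CoA carboxylase, rose by 0.64 ± 0.12 (adjusted p = 0.00211) and Npc2, which carries cholesterol out of lysosomes, by 0.53 ± 0.14 (adjusted p = 0.00877). Pdss1 (-0.52 ± 0.10, adjusted p = 0.00183) and Ggps1 (-0.57 ± 0.15, adjusted p = 0.00845), which use the same isoprenoid building blocks for ubiquinone and for protein prenylation, fell. The oxysterol hydroxylases Cyp7b1 (-0.58 ± 0.11, adjusted p = 0.00196) and Cyp39a1 (-0.60 ± 0.14, adjusted p = 0.00483), which act on products of cholesterol hydroxylation, fell while Cyp46a1 rose. The rise of Cyp46a1 was just 0.095 with the GC and length correction and without WT CS replicate 2. Values of the genes outside the 34 under that setting are not given here. Hacd1 (-0.62 ± 0.14, adjusted p = 0.00483) and Elovl7 (-0.41 ± 0.10, adjusted p = 0.00609), of fatty acid elongation, fell with Elovl6.

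Between WT CS and RS, where 9.28% of all genes were called higher and 8.22% lower, 0 rose and 2 fell of the 17 other sterol genes, 3 and 2 of the 31 fatty acid genes, and 4 and 1 of the 28 transport genes. Acacb was higher (0.51 ± 0.11, adjusted p = 0.0329) and Pdss1 lower (-0.43 ± 0.12, adjusted p = 0.0391). None was called between WT SD and RS, or between CS and SD in Mef2c f/f or Mef2c-cKO. Between Mef2c-cKO and Mef2c f/f in SD, where 15.1% of all genes were called, Slc25a1, the mitochondrial citrate carrier that supplies carbon for lipid synthesis, was higher (0.39 ± 0.10, adjusted p = 0.0347) and the desaturase Scd3 lower (-0.64 ± 0.15, adjusted p = 0.0236), with 2 transport genes higher and 2 lower and none of the other sterol genes called. In CS, where 7.67% of all genes were called, 2 other sterol genes and 2 transport genes were lower, Pdss2, of ubiquinone synthesis, among them (-0.47 ± 0.11, adjusted p = 0.0377).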

How the data were processed

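Frontal cortex poly(A) RNA of 33 mice was sequenced from stranded libraries. The authors trimmed the reads (Trimmomatic), mapped them with STAR on the mm10 build, took HTSeq counts per gene from reads with 1 mapping place and deposited these as CPM (edgeR). The annotation release and strand setting are not given in the sources used here. CPM steps gave whole reads for 100% of 711645 values (tolerance 0.01). CPM was divided by a median-of-ratios factor over 33 libraries (11570 genes), and log2(rescaled CPM + 0.5) was tested with limma (3.58.1, R 4.3.3) between the groups compared, in genes with CPM of at least 1 in every replicate of 1 compared group. p-values were adjusted over all genes tested (Benjamini-Hochberg, 0.05, two-sided), with a log2 fold of 0.3, not required of differences of changes. This trend-moderated fit replaced a count test because CPM was deposited. edgeR (4.0.16) and DESeq2 (1.42.0) on recovered reads were alternatives, as were scaling, pseudocount, filter, GC and length correction (splines of 5 and 4 df), replicate block and leaving out each library. Fits were tested on simulated data. Counts of members under the alternatives carry the share of all genes only where it is printed beside them.

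Groups follow the labels. Each library is taken as 1 mouse, and p-values measure the spread between these samples. Replicate numbers were not taken to mark shared animals, and what else they mark is not given in the sources used here. Counting error is small at these depths, and intervals cover the spread between libraries. All 34 members are described, with values or ranges for those called and for some of those lying apart between groups. At most 3 called genes per wider list, those with the smallest p, are named. Members, lists and tests were chosen with earlier results of these data known. GC content and length come from GENCODE M21 (19256 symbols matched directly, 241 by synonym and 2068 not, of 21565), and promoters from RefSeq.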

Additional observations from a re-analysis of the deposited data

Results flagged for a closer look

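In 13 of 136 combinations of member and group with 4 to 10 libraries, 1 library lay far from the rest by Dixon's criterion, where chance alone gives about 6.8. In WT CS, replicate 2, the library with liver transcripts, was low for Lss (25.3 rescaled CPM, next 30.7) and for Scd2 (510.5, next 715) and high for Elovl5 (64.7, next 56.5), and replicate 3 was high for Stard4 (20.3, next 17.2). In WT SD, replicate 2 was high for Fdps (6.56, next 4.06) and Insig1 (75.8, next 59.4), and replicate 1 for the desaturases Scd1 (124, next 95.9) and Fads2 (77.3, next 54.3). In WT RS, replicate 12 was low for Cyp51 (54.6, next 63.1), replicate 5 high for Dhcr7 (19.5, next 14.9) and replicate 4 high for Elovl5 (72.3, next 59.2). In Mef2c f/f CS, replicate 1 was high for Scd2 (827, next 756) and replicate 3 for Elovl5 (64.1, next 52.5).

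The CS to SD change of 5 members differed between Mef2c f/f and WT by the test of the difference itself (f/f minus WT): Msmo1 0.55, Hsd17b7 0.41, Elovl6 0.37, Srebf1 -1.11 and Srebf2 -0.69. Genotype and library set cannot be told apart there.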

How the results depend on the processing

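The counts of members called between WT CS and SD, WT CS and RS, Mef2c-cKO and Mef2c f/f in CS, and between the changes of Mef2c f/f and WT were 10, 4, 1 and 5, and these depended on the processing. With the GC and length correction they were 5, 2, 2 and 0, with CPM as deposited 14, 7, 3 and 10, without a filter on low values 7, 1, 0 and 1, with edgeR 10, 3, 1 and 3, and with DESeq2 10, 7, 4 and 7. These counts carry no share of all genes called in each setting, so they do not place the members beside other genes. With the correction and WT CS replicate 2 left out, chosen after seeing the data, they were 4, 0 and 0 for the WT comparisons and the f/f minus WT difference. With quantile normalization they were 11, 6, 1 and 4, but the genes were partly others: between WT CS and SD Hmgcs1 (-0.09), Ebp (0.24), Dhcr7 (0.11) and Elovl6 (-0.29) were lost and Acly, Fasn, Scd2, Hsd17b7 and Nsdhl gained, and between the genotypes in CS Fdps was lost (0.38, adjusted p = 0.203) and Scd2 gained. Leaving out single libraries gave 6 to 13, 0 to 8, 0 to 1 and 0 to 9 members, while the calls over all genes, 5826, 2232, 973 and 1983 with all libraries, ranged over 4509 to 6411, 0 to 3740, 171 to 875 and 23 to 3300. It gave 3 to 7 members (822 to 2447 of all genes, 1927 with all libraries) for Mef2c-cKO against Mef2c f/f in SD and 0 to 1 (0 to 590, 5 with all libraries) for Mef2c f/f CS to SD. Besides the libraries named in the report, the f/f minus WT count fell to 1 (Msmo1) without WT CS replicate 1 or 3 or WT SD replicate 4, 8 or 9, and to 2 without WT SD replicate 2 or 6, f/f CS replicate 3 or f/f SD replicate 2. It rose to 8, 8 and 9 without WT CS replicate 4, 5 and 6. The CS to RS count rose to 8 without RS replicate 1 or 2 and to 7 without CS replicate 4 or 6. The 0 calls between WT SD and RS, between Mef2c-cKO CS and SD and for cKO minus f/f stayed at 0 in all alternatives run.

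Under the correction the CS to SD change of Pmvk was -0.40 and those of Scap and Elovl6 -0.029 and 0.013, opposite in sign to the main values; with WT CS replicate 2 also left out Pmvk was at -0.37, Mvd at -0.33 and Scap at -0.045. For f/f minus WT, Elovl6 was at -0.040. The cause was not tested.

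The replicate block gave 0 members between WT CS and SD and 7 between CS and RS, and 0 for f/f minus WT; with the correction it gave 2 (Insig2 and Srebf1), 5 and 0, with Scap at -0.014 in the first and Hsd17b7 at -0.047 in the last. What the replicate numbers stand for is not given in the sources used here. Deviations of same-numbered libraries correlated between -0.33 and 0.55 for WT CS and SD and between 0.068 and 0.67 for CS and RS. The medians over all cross pairs were -0.0063 and 0.03, and 2 libraries in each correlated best with their own number. Of the shared numbers 2 of 3 did so in Mef2c f/f and 2 of 2 in Mef2c-cKO. Whether the numbers mark a shared batch was not tested. For Mef2c-cKO against Mef2c f/f within CS or SD no block could be fitted, because these groups share no numbers.

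Depth limits little here. The lowest member value rests on 66 reads, and the number of mice limits the precision.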

Other observations

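Some members stood at other levels in the WT and Mef2c f/f libraries in control sleep, where genotype and library set cannot be told apart and no test was run. The ranges did not meet for 8 of 34 members (23.5%), against 21.6% of 12798 genes. Stard4 was at 15.9 to 20.3 rescaled CPM in WT CS and at 24.6 to 34.3 in Mef2c f/f CS, Insig1 at 45.0 to 71.3 and 77.5 to 95.3, Dhcr7 at 8.27 to 12.6 and 13.1 to 21.4, and Srebf2 at 47.7 to 97.2 and 104 to 142. Insig2 (22.3 to 29.3 and 30.0 to 32.2), Acat2 (31.5 to 33.6 and 34.1 to 51.5) and Fdft1 (72.6 to 79.0 and 80.0 to 106) lay higher in Mef2c f/f by a narrow gap. Sc5d went the other way, at 59.2 to 101.5 in WT and 45.1 to 51.6 in Mef2c f/f.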
